A study of Mus musculus with 10 samples.

Results

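Genes of cholesterol handling and the liver X receptors (LXRs) were followed in CD11b+ cells isolated from the brains of mice given the CSF1R antagonist GW2580 or vehicle. The 8 genes were chosen by name to represent sterol sensing (Nr1h2, Nr1h3), efflux (Abca1, Abcg1), synthesis (Sqle), lysosomal export (Npc1, Npc2) and ester storage (Soat1). They are 8 of 46152 counted genes, and all 8 passed the filter on low counts. No uptake receptor was among them, so uptake was read from a wider list of 84 pathway genes in 8 lists. Both groups were C57BL/6J mice aged 8 to 12 weeks without a transgene, each with 2 males and 3 females, and 1 library was made per mouse. The GW2580 group (n = 5) received 80 mg/kg/d by oral gavage for 8 d, and the Vehicle group (n = 5) received vehicle for the same time. The cells were enriched on CD11b, which microglia share with monocytes, granulocytes and border macrophages. In bulk RNA such as this, fewer cells of a type and less RNA per cell cannot be told apart.

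Microglia take up cholesterol in lipoproteins, debris and myelin, and the sterol is freed in the lysosome. Npc2 binds it in the lumen and passes it to Npc1 in the limiting membrane for export. Oxysterols made from surplus cholesterol activate LXRs, which pair with retinoid X receptors and raise transcription of the ATP-binding cassette transporters Abca1 and Abcg1. These transporters load cholesterol onto apolipoproteins, while Soat1 esterifies what stays behind for storage in lipid droplets. Synthesis runs the other way, since low membrane sterol releases SREBP transcription factors that raise enzymes such as Sqle.

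Abca1 and Soat1, the exporter and the esterifying enzyme, had the closest patterns among the 28 pairs of the 8 genes. The root mean square difference of their centred log2 CPM over the 10 libraries was 0.23, against 1.26 for Sqle and Npc2, the farthest pair. The stretches upstream of their RefSeq starts (GRCm38.p6, minus strand, 5′ to 3′) are given for that reason, with motif matches in capitals. For Abca1 the start used is an inner one, inside the gene's outer end at 53159988, and the printed stretch lies beyond that end. For Soat1 the start used is at the gene's outer end.
Abca1 (chr4:53159993-53160145, bases -250 to -98): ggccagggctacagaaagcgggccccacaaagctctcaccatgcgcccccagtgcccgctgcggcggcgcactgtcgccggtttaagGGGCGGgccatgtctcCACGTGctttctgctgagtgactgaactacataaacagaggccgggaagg
Soat1 (chr1:156474329-156474578, bases -250 to -1): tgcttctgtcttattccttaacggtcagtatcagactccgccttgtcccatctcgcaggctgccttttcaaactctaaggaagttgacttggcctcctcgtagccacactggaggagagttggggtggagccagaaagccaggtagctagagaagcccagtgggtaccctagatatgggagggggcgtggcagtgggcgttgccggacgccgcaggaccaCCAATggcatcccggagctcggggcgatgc
Both strands of the 250 bases were searched for 6 motifs. The E-box CACGTG matched Abca1 at -147 and is found in 6.02% of 32851 windows of that length. The GC box GGGCGG matched Abca1 at -163 and at -97, the latter past the end of the printed stretch, and is found in 32.7% of windows. The CCAAT box matched Soat1 at -30 and is found in 33.8% of windows. The LXR element, read as 2 direct AGGTCA half-sites spaced by 4 bases (0.0152% of windows), the AGGTCA half-site alone, which lies within it (14.02%), and the sterol response element TCACNCCAC (1.05%) had no match in either window. No motif was matched in both, and a match is a description of the letters only. The motifs were searched with the letters as written, so an LXR element with other letters would have been missed.

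The libraries held 12550418 to 26079343 fragments assigned to genes, and 28419 genes passed the filter. CPM are the fragments of a gene scaled to a common library total, here by TMM. Microglial markers summed to 10165 to 20302 CPM in Vehicle and 14542 to 45404 CPM in GW2580. Of these markers 11 of 12 were tested, and Aif1 was at 0 in every library. Whether this 0 reflects absent RNA was not tested. Vehicle 2 and Vehicle 5 carried the most oligodendrocyte, astrocyte and neuronal RNA. The 11 oligodendrocyte markers summed to 17615 CPM in Vehicle 2 and 3925 CPM in Vehicle 5 against 162 to 1744 CPM in the other 8 libraries. The 10 astrocyte markers summed to 3131 and 1826 CPM in these libraries against 203 to 676 CPM, and the 10 neuronal markers to 618 and 219.6 CPM against 56.3 to 185 CPM. Endothelial markers (Cldn5 at 0) spanned 60.3 to 154 CPM in Vehicle, where Vehicle 5 was highest and Vehicle 2 lowest, and 77.3 to 105 CPM in GW2580. Border macrophage markers spanned 88.6 to 113 CPM and 54.2 to 281 CPM, and those of monocytes and granulocytes 199.6 to 15412 CPM and 189.7 to 4073 CPM, in Vehicle and GW2580. Vehicle 5 stood apart for several of the 8 genes, and estimates that moved by over 1.5 times or changed sign without it are given both ways. Fragments on no exon made up 47.7% to 59.8% of uniquely mapped ones in Vehicle and 47.1% to 70.8% in GW2580. GW2580 1, 4 and 5 were above every Vehicle library (68.0%, 70.8% and 64.7%), and GW2580 3 and Vehicle 5 had the lowest shares. Beyond the covariate fits given beside a result, the part of other cell types and of this share was not tested.

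Levels between genes were compared as TMM-scaled CPM per kilobase of exon. Npc2 was highest at 118 ± 38.7 CPM per kb (SD, n = 10) and Nr1h2 followed at 52.0 ± 29.4, with Npc2 above Nr1h2 in 9 of 10 libraries. Abcg1 (13.5 ± 3.42), Soat1 (11.5 ± 4.56), Abca1 (10.4 ± 3.98) and Npc1 (8.26 ± 2.72) formed a middle set whose spreads overlapped. Neighbours within this set kept their order in 6, 7 and 6 of 10 libraries. Sqle (6.12 ± 8.25) was below Npc1 in 9 of 10 libraries, the exception being Vehicle 5 at 29.4 CPM per kb, and without that library its level was 3.53 ± 0.998 CPM per kb (SD, n = 9). Nr1h3 was lowest at 2.04 ± 2.04 CPM per kb and was below Sqle in 10 of 10. The lysosomal lumen carrier was thus the most abundant transcript of the 8, and of the 2 LXR genes Nr1h2 was the more abundant.

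The comparison asks whether blocking CSF1R moved these routes together. A gene was called when its fold change exceeded 2 at an unadjusted p under 0.05 in edgeR's quasi-likelihood test, the thresholds the study used. By this rule 1 of the 8 genes was called, Nr1h3, and 10.7% of all 28419 genes were. After Benjamini-Hochberg adjustment over all genes 0 genes passed 0.05 in edgeR, where 4186 (14.7%) had an unadjusted p under 0.05, and DESeq2 passed 232 and edgeR's exact test 28. Of the 8 genes 3 had a positive and 5 a negative log2 fold change. Their median was -0.31 against -0.026 over all tested genes, and without Vehicle 5 it was 0.022 against 0.051. Without Vehicle 5, 0 of the 8 were called by edgeR, where 12.9% of genes were, and 0 of the 8 had an unadjusted p under 0.05, where 22.3% of genes did. For 0 of the 8 genes did the 2 groups lie apart without overlap, where 0.985% of all genes lay apart lower with GW2580 and 2.04% higher. The two-sided exact permutation test over libraries, run for each of the 8, gave 0 genes under 0.05 with all libraries and 0 without Vehicle 5.

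**Figure D1:**
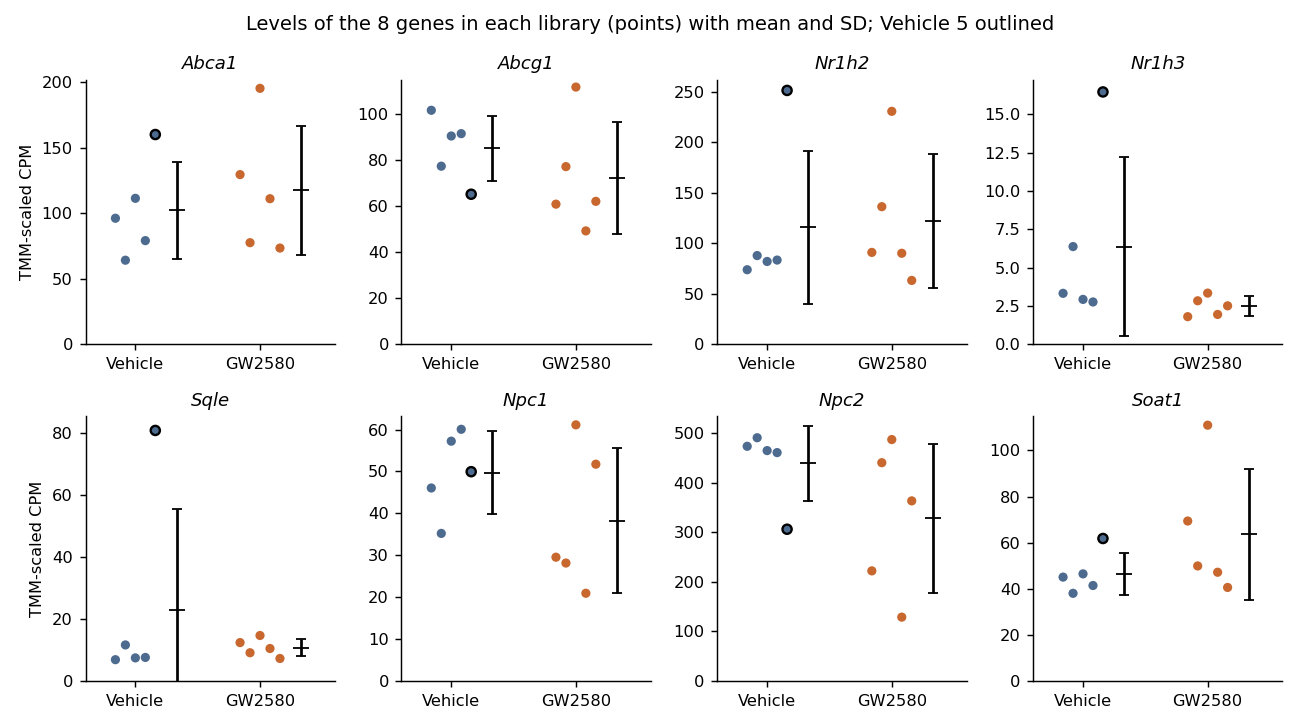
TMM-scaled CPM (linear axis from 0) of each gene in the 5 Vehicle and 5 GW2580 libraries, with the mean and SD beside each group (the lower bar of Sqle is cut at 0) and Vehicle 5 outlined in black. Vehicle 5 lies far above the other Vehicle libraries for Sqle (80.9 CPM), Nr1h2 (251 CPM) and Nr1h3 (16.5 CPM), and below them for Npc2 (306 CPM).

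Nr1h3 (NCBI Gene 22259, chr2:91184061-91202829) encodes LXR-alpha, the receptor best known from macrophages and liver. Its level was 3.32, 6.37, 2.92, 2.76 and 16.5 CPM in Vehicle 1 to 5 and 1.80, 2.83, 3.33, 1.94 and 2.51 CPM in GW2580 1 to 5. Vehicle 5 and Vehicle 2 were the highest, 3 GW2580 libraries lay below every Vehicle library, and the groups overlapped. The means were 6.37 ± 5.83 CPM in Vehicle and 2.48 ± 0.635 CPM in GW2580 (SD, n = 5 each), from 35 to 293 and 35 to 60 fragments. Nr1h3 was lower with GW2580 by a log2 fold change of -1.36 ± 0.49 (SE). edgeR gave an unadjusted p = 0.0155 and an adjusted p = 0.280, and the exact permutation test gave p = 0.0635. Without Vehicle 5 the log2 fold change was -0.63 ± 0.34 (edgeR adjusted p = 0.279, exact permutation p = 0.103), and the call was lost. It was -0.29 without Vehicle 2 and Vehicle 5 and -1.06 with limma-voom, and Nr1h3 was called in neither. These 2 libraries also had the most oligodendrocyte and astrocyte RNA, though Vehicle 2 had more of it than Vehicle 5 and less Nr1h3. With glial and neuronal RNA as a covariate the log2 fold change was -0.64, and with the share of fragments on no exon as a covariate it was -0.62, and Nr1h3 was called in neither fit. Of its exon bases 0.831% are shared with Acp2.

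Nr1h2 (22260, chr7:44549616-44553968) encodes LXR-beta, the broadly expressed receptor. It was measured at 73.7, 87.7, 81.9, 83.3 and 251 CPM in Vehicle 1 to 5 and at 90.8, 136, 230.4, 90.0 and 63.1 CPM in GW2580 1 to 5. Vehicle 5 and GW2580 3 stood above the other libraries, and the groups overlapped. Its log2 fold change was 0.080 ± 0.45 (exact permutation p = 0.794), and 0.58 ± 0.37 without Vehicle 5 (exact permutation p = 0.302), so neither estimate passed the test. The sign turned without GW2580 3 (-0.28) and, near 0, without Vehicle 1, 2, 3 or 4.

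Abca1 (11303, chr4:53030789-53159988) moves cholesterol and phospholipid onto lipid-poor apolipoproteins. Vehicle 1 to 5 held 96.1, 64.1, 111, 79.1 and 160.0 CPM, and GW2580 1 to 5 held 129, 77.5, 195, 111 and 73.4 CPM. The ranges overlapped almost fully, with 1 GW2580 library above all Vehicle libraries. The log2 fold change was 0.20 ± 0.37 (edgeR adjusted p = 0.819, exact permutation p = 0.651). Without Vehicle 5 it was 0.42 ± 0.35 (exact permutation p = 0.333), and without GW2580 3, the highest library, its sign turned, to -0.060.

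Abcg1 (11307, chr17:31057694-31117984) passes cholesterol to lipidated particles. Levels were 102, 77.3, 90.4, 91.4 and 65.1 CPM in Vehicle 1 to 5 and 60.8, 77.1, 112, 49.2 and 62.0 CPM in GW2580 1 to 5. GW2580 1, 4 and 5 were below every Vehicle library and GW2580 3 above every one. Abcg1 had a log2 fold change of -0.24 ± 0.31 (edgeR adjusted p = 0.730, exact permutation p = 0.238), which ranged from -0.45 without GW2580 3 to -0.12 without GW2580 4. The 2 efflux transporters had estimates of opposite sign over all libraries, neither past the test.

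Sqle (20775, chr15:59315092-59331193) encodes squalene epoxidase, a rate-controlling step of sterol synthesis. In Vehicle 1 to 5 it was at 6.86, 11.6, 7.43, 7.58 and 80.9 CPM, and in GW2580 1 to 5 at 12.4, 9.09, 14.7, 10.5 and 7.24 CPM. Vehicle 5 was above every other library of either group, and the remaining 9 lay between 6.86 and 14.7 CPM. Over all libraries the log2 fold change was -1.09 ± 0.65 (edgeR adjusted p = 0.436, exact permutation p = 0.913). Without Vehicle 5 its sign turned, to 0.36 ± 0.28 (exact permutation p = 0.198), with Vehicle at 8.37 ± 2.19 CPM (SD, n = 4) and GW2580 at 10.8 ± 2.88 CPM (SD, n = 5). With glial and neuronal RNA as a covariate the estimate was 0.056. Vehicle 2 was the highest of Vehicle 1 to 4, and GW2580 1 and GW2580 3 were above it. Oligodendrocyte markers summed to 17615 CPM in Vehicle 2 and 3925 CPM in Vehicle 5. In GW2580 1 and GW2580 3 they summed to 568 and 504 CPM. DESeq2 returned no p for this gene.

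Npc1 (18145, chr18:12189694-12236506) is the membrane protein of lysosomal cholesterol export. Its values were 46.0, 35.2, 57.2, 60.1 and 49.9 CPM in Vehicle 1 to 5 and 29.5, 28.1, 61.1, 20.9 and 51.7 CPM in GW2580 1 to 5. GW2580 1, 2 and 4 were below every Vehicle library, whereas GW2580 3 was above them. The log2 fold change was -0.38 ± 0.34 (exact permutation p = 0.190), and -0.37 ± 0.34 without Vehicle 5 (exact permutation p = 0.254). It ranged from -0.61 without GW2580 3 to -0.21 without GW2580 4. Npc1 shares 5.40% of its exon bases with Rmc1.

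Npc2 (67963, chr12:84754559-84773112) is the soluble partner in the lysosomal lumen. Levels of 474, 491, 465, 461 and 306 CPM were found in Vehicle 1 to 5 and of 222, 441, 487, 129 and 363 CPM in GW2580 1 to 5. Vehicle 1 to 4 lay close together, Vehicle 5 was lower, and GW2580 1 and 4 were below every Vehicle library. Npc2 averaged 439 ± 75.3 CPM in Vehicle and 328 ± 150.1 CPM in GW2580 (SD, n = 5 each). On the log2 scale it differed by -0.42 ± 0.39 (exact permutation p = 0.206), and by -0.53 ± 0.41 without Vehicle 5 (exact permutation p = 0.119). Without GW2580 4 the estimate was -0.21. Both lysosomal genes had negative estimates in each fit, within the spread between libraries.

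Soat1 (20652, chr1:156428108-156474328) esterifies cholesterol in the endoplasmic reticulum. It stood at 45.0, 38.0, 46.4, 41.4 and 61.8 CPM in Vehicle 1 to 5 and at 69.4, 49.9, 111, 47.1 and 40.6 CPM in GW2580 1 to 5. GW2580 1 and 3 were above every Vehicle library, and none was below them all. The log2 fold change was 0.45 ± 0.33 (edgeR adjusted p = 0.530, exact permutation p = 0.222), and 0.57 ± 0.33 without Vehicle 5 (exact permutation p = 0.167). Without GW2580 3 it was 0.15.

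**Figure D2:**
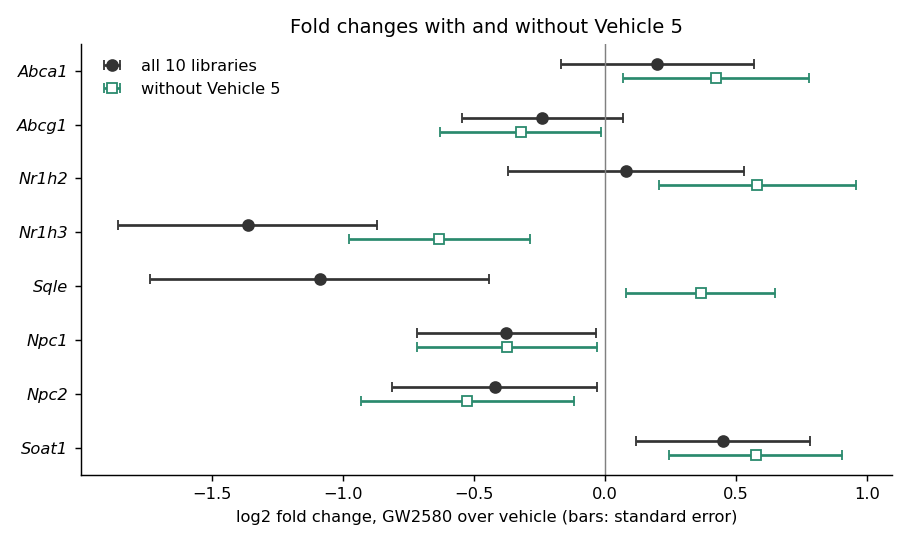
Log2 fold change of GW2580 over vehicle (x axis, edgeR) for each gene, with standard errors, from all 10 libraries (filled circles) and without Vehicle 5 (open squares). Without that library Nr1h3 moves from -1.36 to -0.63 and Sqle from -1.09 to 0.36, while Npc1 stays near -0.38.

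Ratios between 2 genes of one library do not depend on how libraries are scaled, so 5 pairs were compared as log2 ratios of counts. The ratio of Nr1h2 to Nr1h3 was 4.46, 3.78, 4.79, 4.90 and 3.93 in Vehicle 1 to 5 and 5.64, 5.57, 6.10, 5.52 and 4.64 in GW2580 1 to 5. GW2580 1 to 4 were above every Vehicle library and GW2580 5 lay among them. The mean was 4.37 ± 0.50 in Vehicle and 5.49 ± 0.53 in GW2580 (SD, n = 5 each), a difference of 1.12 with a two-sided exact permutation p = 0.0238. Adjusted over the 5 ratios, this permutation p was 0.119. With permutations within sex the same difference had a permutation p = 0.050, which is not under 0.05. Without Vehicle 5 the difference was 1.01 with an exact permutation p = 0.0317. Leaving out Vehicle 2 and Vehicle 5 together gave a difference of 0.78 and an exact permutation p = 0.107.

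The other 4 ratios did not pass the exact permutation test. Abca1 to Abcg1, the balance of the efflux transporters, averaged 0.21 ± 0.65 in Vehicle and 0.66 ± 0.52 in GW2580, with a permutation p = 0.246. Npc1 to Npc2, the lysosomal pair, averaged -3.15 ± 0.45 and -3.06 ± 0.53, with a permutation p = 0.770. Synthesis against efflux, as Sqle to Abca1, averaged -2.90 ± 1.21 and -3.39 ± 0.23, with a permutation p = 0.476. Synthesis against storage, as Sqle to Soat1, averaged -1.82 ± 1.298 and -2.50 ± 0.27, with a permutation p = 0.294. In both Sqle ratios Vehicle 5 was the highest library, at -0.98 and 0.39. Without it the difference in Sqle to Abca1 went from -0.48 to -0.0040 (permutation p = 0.992) and that in Sqle to Soat1 from -0.68 to -0.13 (permutation p = 0.603). The difference in Abca1 to Abcg1 went from 0.46 to 0.73 without Vehicle 5 (permutation p = 0.0556) and that in Npc1 to Npc2 from 0.087 to 0.22 (permutation p = 0.492).

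**Figure D3:**
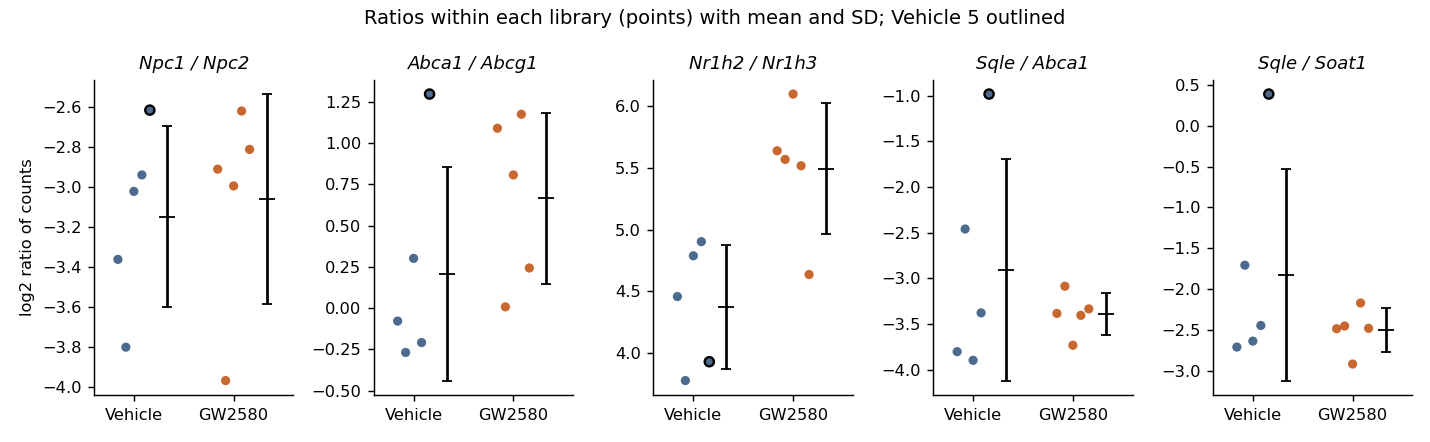
Log2 ratios of counts (y axes, each with its own range) for 5 gene pairs in every library, with the mean and SD of each group and Vehicle 5 outlined. Nr1h2 to Nr1h3 is the pair with 4 GW2580 libraries above all Vehicle libraries.

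Of the 84 genes of the wider pathway, 82 were tested. Rxrb had 0 fragments and Trem2 had 2 over all libraries, and these were left out by the filter. Multimapping and ambiguous reads were left unassigned, and whether the counts of these genes reflect absent RNA was not tested. Of the 82, 1 was called higher and 7 lower with GW2580, where 4.01% and 6.70% of all genes were. Without Vehicle 5, 6 were called higher and 3 lower, against 6.18% and 6.74%. Without Vehicle 2 and Vehicle 5, 6 were called higher and 0 lower by edgeR, against 5.09% and 3.42%. At an unadjusted p under 0.05 in that fit there were 13 higher and 3 lower. The share of all genes at this threshold was not computed for that fit, so these counts are not read as a shift of the pathway. The number with a positive estimate was 29 of 82 over all libraries, 44 without Vehicle 5 and 54 without Vehicle 2 and Vehicle 5. Vehicle 5 was the highest Vehicle library for 57 of the 84, and for 36.9% of all tested genes.

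Efflux transporters and lipoprotein genes had a median log2 fold change of -0.81, with 3 of 11 called lower, where 6.70% of all genes were, and 0 higher by edgeR. Vehicle 5 was the highest Vehicle library for each of the 3. Apoe, the main brain apolipoprotein, was by far the most abundant of them at 1253 CPM per kb. It averaged 5504 ± 2066 CPM in Vehicle and 2888 ± 1787 CPM in GW2580 (SD, n = 5 each), and its log2 fold change was -0.93 ± 0.52 (edgeR adjusted p = 0.404). Pltp, the phospholipid transfer protein, was called lower at -2.32 ± 0.90. Its Vehicle 5 level was 667 CPM against 22.5 to 42.3 CPM in the other Vehicle libraries, and without Vehicle 5 its log2 fold change was -0.015. Abcg4, a transporter related to Abcg1, was called lower at -1.32 ± 0.58 and was not called without Vehicle 5 (-0.74). The call of Abcg4 was made with 4 of 10 single libraries left out. Lcat, which esterifies cholesterol in lipoproteins, was called lower with (-2.34 ± 0.80) and without (-1.71 ± 0.72) Vehicle 5. Vehicle 5 (22.4 CPM) and Vehicle 2 (19.2 CPM) stood above a Vehicle median of 1.95 CPM. Without both the sign of Lcat turned, to 0.16, and with glial and neuronal RNA as a covariate it was -0.59 and not called. Lpl, a lipoprotein lipase, had 0.17 ± 0.42, with 11.6 CPM in Vehicle 5 against 36.4 to 58.6 CPM in the other Vehicle libraries, and its sign turned without Vehicle 5 (-0.064). Apoc1, a small apolipoprotein, was called lower without Vehicle 5 (-1.51 ± 0.66) and not with it (-1.42 ± 0.67). Its call was made with 3 of 10 single libraries left out, and the estimate ranged from -2.74 without GW2580 5 to -1.09 without Vehicle 2. The list's median without Vehicle 5 was -0.32.

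Of the 16 LXR target genes, 1 was called higher and 3 lower, where 4.01% and 6.70% of all genes were, with a median of -0.79, and -0.15 without Vehicle 5. The count was 2 higher and 1 lower without Vehicle 5 (6.18% and 6.74% of all genes). It was 4 higher and 0 lower without Vehicle 2 and Vehicle 5 (5.09% and 3.42% of all genes, and 0 lower at an unadjusted p under 0.05 by edgeR), when the desaturase genes Scd1 (1.22) and Scd2 (1.88) were among those called higher. Over all libraries these were at -1.16 and -1.25, and without Vehicle 5 at -0.51 and 0.46. Mertk, a phagocytic receptor, was the gene called higher, at 220 ± 83.9 CPM in Vehicle and 474 ± 298 CPM in GW2580, a log2 fold change of 1.11 ± 0.47. Its call held with 4 of 10 single libraries left out, among them Vehicle 5 (1.36 ± 0.48), and was lost without Vehicle 1, 2, 3 or 4 and without GW2580 1 or 3, the lowest being 0.72 without GW2580 3. Fasn, the fatty acid synthase, was called lower at -1.63 ± 0.63, with 156 CPM in Vehicle 5 against 15.4 to 36.6 CPM in Vehicle 1 to 4. Its log2 fold change without Vehicle 5 was -0.55 ± 0.39 and no longer passed. Lpcat3, which remodels phospholipids, had 0.35 ± 0.38.

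Of 10 tested genes of sterol sensing and control, Nr1h3 was called lower and 0 were called higher by edgeR, where 6.70% and 4.01% of all genes were, with a median of -0.18. Without Vehicle 5, 2 were called higher and 0 lower by edgeR, where 6.18% and 6.74% of all genes were, with a median of 0.53. At an unadjusted p under 0.05 there were 3 higher and 0 lower, where 22.3% of all genes passed in either direction. Srebf1, a lipogenic transcription factor and LXR target, was at 297 CPM in Vehicle 5 and 21.4 to 26.8 CPM in the other Vehicle libraries. Its log2 fold change was -0.65 ± 0.72 with Vehicle 5 and 1.03 ± 0.36 without it, when it was called higher. Mbtps1, a protease that activates SREBPs, had 0.52 ± 0.54, and was called higher without Vehicle 5 (1.27 ± 0.41). Scap, the SREBP escort, had -0.33 ± 0.60, and 0.86 ± 0.32 without Vehicle 5.

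Uptake receptors had 0 of 9 called by edgeR, where 10.7% of all genes were, with 0 at an unadjusted p under 0.05, where 14.7% were, and a median of 0.029. Scarb1, a receptor for high-density lipoprotein, had 0.66 ± 0.37, and Lrp1, a large endocytic receptor, -0.080 ± 0.54. Lrp1 was at 629.6 CPM in Vehicle 5 against 112 to 164 CPM in the other Vehicle libraries, and its sign turned without Vehicle 5 (0.69 ± 0.41). Without Vehicle 5 the median was 0.52, with 0 called by edgeR against 12.9% of all genes and 1 at an unadjusted p under 0.05 against 22.3%.

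Sterol synthesis enzymes had a median of -0.74, with 2 of 21 called lower, where 6.70% of all genes were, and 0 higher by edgeR. Vehicle 5 was the highest Vehicle library for 18 of the 21, and for 36.9% of all tested genes. It was also the highest of the 10 libraries for 18 of the 21. Pmvk, a kinase of the mevalonate pathway, was called lower with (-1.31 ± 0.36) and without (-1.24 ± 0.35) Vehicle 5. All 5 GW2580 libraries (10.4 to 24.8 CPM) lay below every Vehicle library (27.6 to 66.1 CPM), as was so for 0.985% of all genes. With glial and neuronal RNA as a covariate it was called at -1.04, with the share of fragments on no exon as a covariate it was -0.98 and not called, and without Vehicle 2 and Vehicle 5 it was -0.85, under the 2-fold threshold. Ebp had -0.76 ± 0.44, Fdps -0.95 ± 0.39 and Msmo1 -0.70 ± 0.39, none of them called. Without Vehicle 5, where Msmo1 was at 105 CPM against 37.2 to 57.7 CPM in the other Vehicle libraries, its estimate was -0.34. Without Vehicle 5 the list's median was -0.023, and Lbr, a sterol reductase of the nuclear envelope, was called higher (1.07 ± 0.39, and 0.56 ± 0.47 over all libraries).

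Lysosomal export and sterol transfer genes had 0 of 13 called by edgeR, where 10.7% of all genes were, with 0 at an unadjusted p under 0.05, where 14.7% were, and a median of 0.31. The abundant lysosomal membrane genes Lamp1 (0.35 ± 0.40) and Lamp2 (0.30 ± 0.40, and 0.49 without Vehicle 5) and the endosomal sterol carrier Stard3 (0.57 ± 0.37) had positive estimates, while Npc1 and Npc2 had negative ones. Without Vehicle 5 the median was 0.30, and 2 of 13 genes were called higher, where 6.18% of all genes were. These were the sterol transfer genes Gramd1a (1.18 ± 0.43, and 0.83 ± 0.45 over all libraries) and Osbp (1.09 ± 0.34, and 0.31 ± 0.50). Without Vehicle 2 and Vehicle 5 Osbp was at 0.98 and not called.

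Ester storage and release had 0 of 6 called by edgeR and 1 at an unadjusted p under 0.05, where 10.7% and 14.7% of all genes were. The lipid droplet coat genes Plin2 (-0.050 ± 0.37) and Plin3 (-0.74 ± 0.46) and the lipase Lipe (0.28 ± 0.31) had estimates on both sides of 0. Plin3 was at 159 CPM in Vehicle 5 against 33.9 to 58.7 CPM in the other Vehicle libraries. Without Vehicle 5 these estimates were -0.10, -0.15 and 0.44. Oxysterol enzymes had 0 of 4 called by edgeR and 0 at an unadjusted p under 0.05, against the same 10.7% and 14.7% of all genes. Cyp27a1, which makes side-chain oxysterols, had 0.47 ± 0.35, Cyp46a1 -0.78 ± 0.48 and Cyp7b1 -0.58 ± 0.33. Without Vehicle 5 the last 2 were -0.45 and -0.31, and without Vehicle 2 and Vehicle 5 the sign of Cyp46a1 turned, to 0.30.

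**Figure D4:**
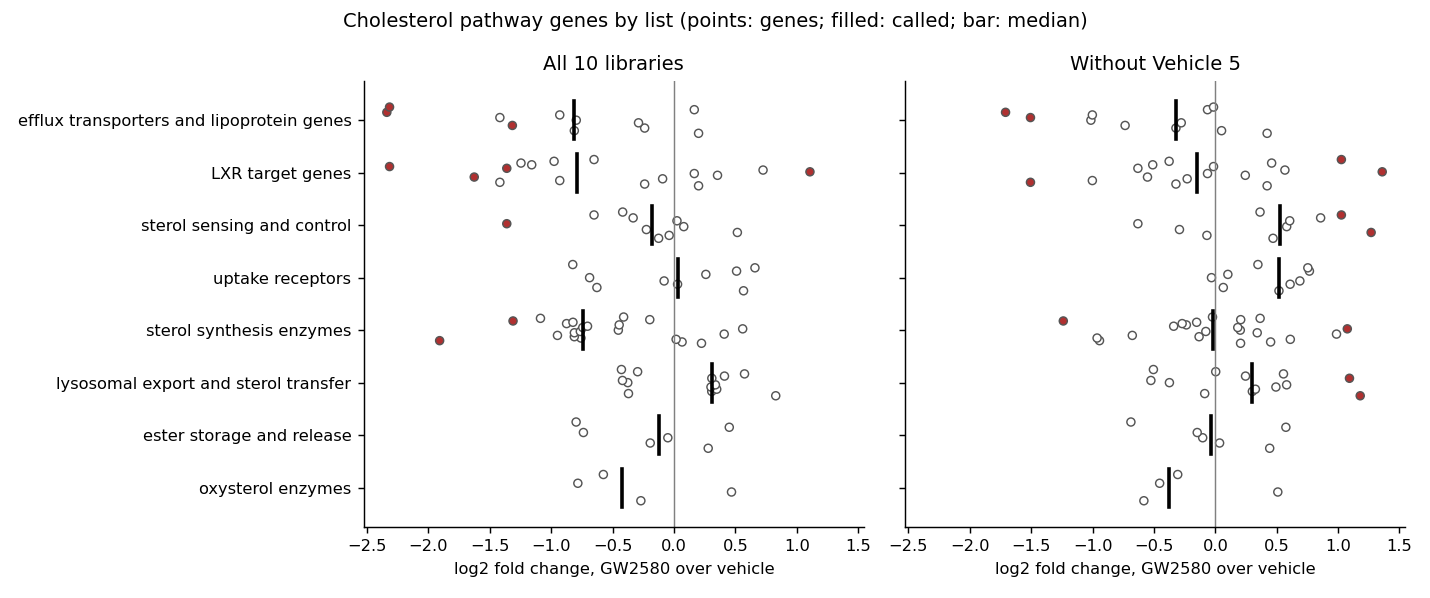
Log2 fold change of GW2580 over vehicle (x axes) for every tested pathway gene by list, with all 10 libraries (left) and without Vehicle 5 (right), called genes filled and list medians as bars. The medians move from -0.74 to -0.023 for synthesis and from -0.18 to 0.53 for sensing, and stay near 0.30 for lysosomal export.

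For each of the 8 genes the most alike patterns were sought among genes above 20 CPM, by the root mean square difference of centred log2 CPM over 10 libraries. Soat1 had the closest match, Cul1 at 0.062, followed by Ykt6 at 0.10. Nr1h2 was nearest to Nr2f6 and Exoc7, Npc2 to Rer1 and Psma1, Abca1 to Plcb2 and Ccdc88b, and Abcg1 to 5430427O19Rik and Synj2. Npc1 was nearest to Klf4 and Polr2a, Nr1h3 to Macrod1 and Nicn1, and Sqle to Stim1 and Capn2, the last at 0.21 and 0.22. These distances are descriptions over libraries that share depth and scaling.

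The sex by treatment term of edgeR had an unadjusted p under 0.05 for 0 of the 8 genes, where 2.52% of all genes did, and its smallest p was 0.174, for Sqle. Of the 82 pathway genes 1 did, Apoc1, with a log2 fold change of -3.64 in males and -0.39 in females. With 2 males and 3 females per group, the effect in males and females was not shown to differ for these genes.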

How the data were processed

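RNA from CD11b+ brain cells was made into SMART-Seq libraries, and per the labels reads were aligned with STAR to GRCm38 and counted by the authors. The deposited counts are fragments per gene from featureCounts 1.6.3 on exons of the GRCm38.p6 RefSeq annotation without strand, per the file headers, with ambiguous and multimapping reads unassigned. Genes were named through the RefSeq table, which matched 46029 of 46152.

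Genes above 1 CPM in 3 or more libraries were tested with edgeR 4.0.16 (TMM scaling, quasi-likelihood, treatment as the term) in R 4.3.3, and SE was taken as the log2 fold change over the root of F. CPM are TMM-scaled. Ratios used counts plus 0.5 and two-sided exact permutation over 252 splits, whose smallest p is 0.00794. In simulated counts for this comparison (27419 genes), 49.1% of genes changed by log2 1 and 96.7% by log2 2 had p under 0.05. DESeq2 1.42.0 and limma 3.58.1 were alternatives.

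The 8 genes, lists and tests were chosen with earlier results of these data known. Named were the 8 genes, in each list up to 3 genes of highest level per kilobase and each called gene, and for each of the 8 the 2 nearest patterns. Some genes that this rule names are not reported here. Genes named for calls made only without Vehicle 5 were chosen after their values were seen. The marker lists are not the study's own and are not complete. Promoter windows were found for 5 of the 8 genes.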

Additional observations from a re-analysis of the deposited data

Results flagged for a closer look

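In 26 groups of 5 values (the 8 genes and 5 ratios in each group of mice) the gap of the farthest library to its neighbour was compared with the group's range. Chance marks about 1 in 20 such groups, and 5 were marked. Among Vehicle libraries, 4 of them were Vehicle 5. Nr1h2 was at 251 CPM there, with the next library at 87.7 CPM, Nr1h3 at 16.5 CPM with the next at 6.37 CPM, and Sqle at 80.9 CPM with the next at 11.6 CPM. Npc2 was at 306 CPM in Vehicle 5, with the next library at 461 CPM. Among GW2580 libraries, the log2 ratio of Npc1 to Npc2 was -3.97 in GW2580 2, with the next at -2.99.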

How the results depend on the processing

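The number of the 8 genes called stayed at 1 in 20 of 27 alternatives. It was 0 with limma-voom, with glial and neuronal RNA or the share of fragments on no exon as a covariate, without Vehicle 5, without Vehicle 2 and Vehicle 5, without Vehicle 5 and GW2580 5, and at an adjusted p under 0.05. Leaving out single libraries gave 0 to 1. The number of pathway genes called was 8 and stayed within 1.5 times that in 22 of 27 alternatives, though the direction of calls moved from 1 higher and 7 lower to 6 and 3 without Vehicle 5 and to 6 and 0 without Vehicle 2 and Vehicle 5. It was 2 of 82 with the glial and neuronal covariate (1 higher and 1 lower, 7.66% of all genes called). With the no-exon covariate it was also 2 (2 higher and 0 lower, 6.09%). It was 13 without Vehicle 5 and GW2580 5 (22.3%) and 0 at an adjusted p under 0.05. With 1 library left out it was 5 to 11. The 5 came without GW2580 1 (6.07% of all genes called), and the 11 without Vehicle 4 (11.7%) and without GW2580 5 (17.6%). Without Vehicle 5 and GW2580 5, 4844 genes passed an adjusted p of 0.05 in edgeR, and 0 did with all libraries.

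Abcg1 (-0.45 to -0.091), Npc1 (-0.61 to -0.21), Npc2 (-0.66 to -0.21) and Soat1 (0.15 to 0.64) kept their sign in all 25 alternatives, and Nr1h3 kept it between -1.55 and -0.29. With 1 library left out, Abca1 ranged from -0.060 to 0.42, Nr1h2 from -0.28 to 0.58 and Sqle from -1.31 to 0.36. The estimate of Abca1 turned to -0.060 without GW2580 3. That of Nr1h2 turned to -0.045, -0.0062, -0.022 and -0.018 without Vehicle 1, 2, 3 and 4 and to -0.28 without GW2580 3. Sqle turned to 0.056 with glial and neuronal RNA as a covariate, 0.36 without Vehicle 5, 0.55 without Vehicle 2 and Vehicle 5, and 0.38 without Vehicle 5 and GW2580 5. Library size alone moved the median of all genes to 0.23.

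With 1 library left out, the difference in Npc1 to Npc2 ranged from -0.076 to 0.31. Its sign turned without Vehicle 2 (-0.076) and without GW2580 4 (-0.023). Sqle to Abca1 turned to 0.30 and Sqle to Soat1 to 0.097 without Vehicle 2 and Vehicle 5. The difference in Nr1h2 to Nr1h3 missed 0.05 at 0.78 without these libraries, at 1.12 with permutations within sex (permutation p = 0.050), and at 1.12 with a replicate block, whose sign flips of 5 pairs cannot go below p = 0.0625. It spanned 0.97 to 1.34 with 1 library left out. Same-numbered libraries correlated at -0.39 to 0.13, and 0 of 5 Vehicle and 1 of 5 GW2580 libraries correlated best with their own number. These values do not show that the numbers pair the mice. With 5 libraries per group they cannot exclude it, and same-numbered libraries share the sex of the mouse. The cause of the shifts between settings was not tested.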
